A study of Homo sapiens with 40 samples.

Results

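DEAD and DEAH box proteins are the largest family of RNA helicases in human cells: they use ATP to pull RNA strands apart or to strip proteins off RNA, and they are named after the amino acid letters of a shared ATP-binding motif. They act at nearly every step in the life of an RNA. Several DEAH proteins and DEAD proteins drive the rearrangements of the spliceosome, others load export factors onto mRNA, help ribosomes to assemble or to start translation, and a few sense foreign RNA or unwind DNA. Their own pre-mRNAs are spliced too, and the values below describe that splicing, not the amount or activity of the helicases.

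The family was taken as every gene whose symbol begins with DDX or DHX followed by a digit. The name table held 56 such symbols with nothing after the number but a letter or a final L. Longer symbols, of the form of DDX11L1, were left out of the 56. Of the 56, 33 genes had at least 1 exon in the deposited exon tables, out of 6976 gene identifiers in all. They held 75 exon events, where an event is an internal exon together with the span between its flanking exons, and 15 introns lay within their measured intervals, making 90 of the 19077 regions measured. Exons of 31 of these genes were compared for R749H and 32 for E1126G by RNA-seq, 9 genes had an exon in RASL-seq, and 6 genes had an intron. The other 23 symbols had no exon event in the tables and were not analysed here. DDX58 is listed under its present symbol RIGI and so was not counted.

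The study asked how the speed of RNA polymerase II bears on splicing. It used HEK293 Flp-in T-REx cells, a human embryonic kidney line in which an inducible transgene sits at 1 chosen genomic site, each line carrying an α-amanitin-resistant Rpb1, the large subunit of polymerase II. The groups were the slow mutants R749H and H1106Y, the fast mutant E1126G, and WT Rpb1 with the same resistance. Doxycycline switched the transgene on for 12 to 16 h in every group, and 42 h in α-amanitin then silenced the polymerase of the host cell, so WT cells carried the same induction and drug. Poly(A)+ RNA was read by RNA-seq (2 libraries each of R749H, E1126G and WT) and by RASL-seq, in which probe pairs are ligated across chosen exon junctions and the products counted (3 libraries each of R749H, H1106Y, E1126G and WT). H1106Y was not in the RNA-seq tables.

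Each deposited table gives 1 WT ratio of inclusion to skipping (or of retention to splicing), 1 log2 change of the mutant ratio over the WT ratio, and 1 p-value per event. There is no value per library, so no SD can be given and the depth behind each event is unknown. The deposited p-value is the only measure of error. The test behind it is not given, so it may not cover the spread between libraries. Ratios were turned into levels: inclusion as a percent of inclusion plus skipping, or retention as a percent of retention plus splicing. Each level belongs to its own event and span and is not a share of all transcripts of the gene. An event was called changed where the deposited p-value, adjusted by Benjamini-Hochberg over the whole table, was under 0.05. The tables hold no expression levels, so the targeted gene and the markers of the cell line could not be checked. The mutants share their WT values within an assay, so a high or low WT ratio moves all of them.

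In the RNA-seq exon tables, R749H changed 16 of the 68 helicase exons tested, in 8 genes: 10 were included more and 6 less. That is 23.5%, against 15.1% called among all 14358 exons of that table, where 7.07% were higher and 8.04% lower. Of these 16 calls, 7 lay among the 17 events of DDX11, DDX12B and DDX12P, which are near-identical copies whose reads the mapping could have exchanged. Without these copies 9 of 51 exons were called, or 17.6%, with 5 higher and 4 lower, a share near that of all exons. E1126G changed 2 of 71 helicase exons, 1 in each direction, which is 2.82% against 6.48% of all 14650 exons (2.2% higher and 4.27% lower). The median log2 change of the helicase exons was -0.05 for R749H and 0.17 for E1126G, beside medians of -0.005 and -0.08 over all exons of the same tables.

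**Figure D1:**
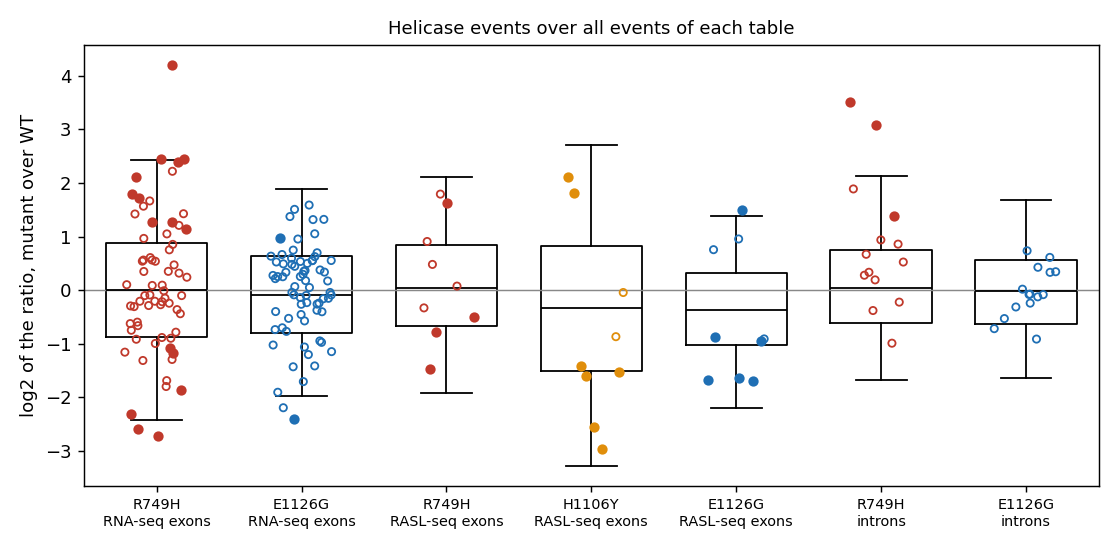
The log2 of the mutant over the WT ratio is plotted for each helicase event in the 7 tables (points; filled where called), over a box of the quartiles of all events of that table with whiskers at the 5th and 95th percentiles. R749H has 16 filled points among its RNA-seq exons, E1126G has 2, and the 2 highest introns of R749H, both of DDX11, lie at 3.51 and 3.08.

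Many helicase exons were nearly constitutive. For R749H, 35 of the 68 exons had a WT level above 95%, which is 51.5%, against 39.2% of all exons, and their median WT level was 95.4% against 90.5%. Their median length was 105 nt, against 108 nt for all exons. A length that is a multiple of 3, which keeps the reading frame when the exon is skipped, was found in 22 of the 68 (32.4%) and in 43.5% of all exons. Among the 28 helicase exons with a WT level of 5% to 95%, 9 were called, with p-values adjusted over the whole table. Of all exons in that range 20.1% were called. The 9 include exons of DDX11 and DDX12B, whose reads the mapping could have exchanged. They also include a pair in DDX46 and a pair in DDX50, each sharing a span.

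The spliceosomal helicases were led by DDX46, the human form of yeast Prp5, which helps the U2 snRNP to bind the branch site. Of 19 exons in 8 genes of this role, R749H raised 3 and lowered 1 in the RNA-seq table. That is 21.1% against 15.1% of all exons (7.07% higher, 8.04% lower). The 4 calls lay in 2 of the 8 genes, DDX46 and DDX39B. The median log2 change of the 19 exons was 0.24 against -0.005. The 117-nt exon of DDX46 lies on chromosome 5 (134125796 to 134125912, plus strand, GRCh37). The authors' deposited tables gave it 54.7% inclusion in R749H and 23.9% in E1126G, against 18.7% in WT. Its log2 change was 2.39 in R749H (adjusted p = 2.8e-10) and 0.44 in E1126G (adjusted p = 0.61). The R749H level stood well above the other 2, which were 5.15 points apart. A second DDX46 exon in the same span, of 49 nt (134124906 to 134124954), rose in R749H (log2 change 1.72, adjusted p = 0.0017). The authors' deposited tables gave it 23.9% inclusion in R749H and 9.69% in E1126G, against 8.70% in WT. The 117-nt length keeps the reading frame and the 49-nt length does not. The 2 exons share a span and so are not independent.

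The 117-nt DDX46 exon was also probed by RASL-seq. The authors' deposited RASL-seq tables gave 10.2% in R749H, 20.6% in H1106Y and 14.5% in E1126G, against 5.68% in WT. It rose in H1106Y (log2 change 2.11, adjusted p = 1.7e-04) and in E1126G (1.49, adjusted p = 1.2e-04), while R749H, with a log2 change of 0.91, had an adjusted p of 0.15. All 3 mutants lay above WT in RASL-seq, but E1126G stood above R749H there, a difference that was not called. In RNA-seq this was the 1 helicase exon of 65 whose change differed between the mutants: R749H exceeded E1126G by 1.95 on the log2 scale (95% interval 0.97 to 2.93, adjusted p = 0.011), against 1.74% of 13247 exons called. That test is approximate. Each standard error was worked back from a deposited log2 change and its p-value, and the shared WT was counted in both. The intervals between mutants thus rest on p-values whose test is not given.

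DDX39B (UAP56) helps to load U2 snRNP and recruits export factors to spliced mRNA, and so stood on the spliceosome and export lists. Its 175-nt exon on chromosome 6 (31508930 to 31509104, minus strand) has 2 spans. For the shorter one the authors' deposited tables gave 10.1% inclusion in R749H and 3.11% in E1126G, against 2.02% in WT. It rose in R749H for that span (log2 change 2.44, adjusted p = 6.7e-05). For the longer span it had 20.0% in R749H and 11.2% in E1126G, against 10.8% in WT, in the authors' deposited tables, and was not called (adjusted p = 0.060 in R749H). Its 93-nt exon (31506540 to 31506632) fell slightly to 93.0% in R749H, with 96.3% in E1126G, against 96.6% in WT, in the authors' deposited tables (log2 change -1.09 in R749H, adjusted p = 0.026). A read-through transcript that joins ATP6V1G2 to DDX39B has its own identifier in the tables, and reads of the shared exons cannot be told apart. These 2 exons were the 2 calls among the 8 exons of the 3 export helicase genes in R749H, against 15.1% of all exons, and the median log2 change of the 8 was -0.07 against -0.005.

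DDX42, which is known from the U2 snRNP, carries a 37-nt exon on chromosome 17 (61876949 to 61876985, plus strand). The exon's inclusion level was high in every genotype measured. The authors' deposited RNA-seq tables gave 96.5% in R749H and 92.7% in E1126G, against 98.5% in WT. It fell in E1126G (log2 change -2.40, adjusted p = 0.0022), the 1 lower call of that mutant among helicase exons, while R749H had an adjusted p of 0.17. In the authors' deposited RASL-seq tables it was 97.7% in R749H, 96.3% in H1106Y and 95.8% in E1126G, against 98.7% in WT. All 3 were lower there (adjusted p = 3.6e-06, 4.8e-24 and 1.1e-47), although none of the 3 differed from WT by as much as 10 points.

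DHX35, found in the activated spliceosome, moved in E1126G alone among the RASL-seq calls. Its 93-nt exon on chromosome 20 (37601202 to 37601294, plus strand) was included at 80.0% in R749H, 73.6% in H1106Y and 48.0% in E1126G, against 74.1% in WT, in the authors' deposited RASL-seq tables. Only the E1126G level was called (log2 change -1.63, adjusted p = 1.8e-04). The change in R749H exceeded that in E1126G by 2.12 (95% interval 0.85 to 3.38, adjusted p = 0.0054), and H1106Y exceeded E1126G by 1.59 (0.30 to 2.88, adjusted p = 0.033). This exon was not in the RNA-seq tables.

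DHX9 (RNA helicase A) unwinds double-stranded RNA in the nucleus and takes part in sensing it. Its 137-nt exon lies on chromosome 1 (182824712 to 182824848, plus strand). The authors' deposited RNA-seq tables gave it 58.7% inclusion in R749H and 39.3% in E1126G, against 24.7% in WT. Both mutants rose (log2 change 2.11, adjusted p = 2.3e-09, in R749H and 0.98, adjusted p = 0.026, in E1126G). It was the 1 helicase exon that RNA-seq called in both mutants. The R749H change was 1.13 larger on the log2 scale, a difference with an adjusted p of 0.21. The length of 137 nt does not keep the frame.

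**Figure D2:**
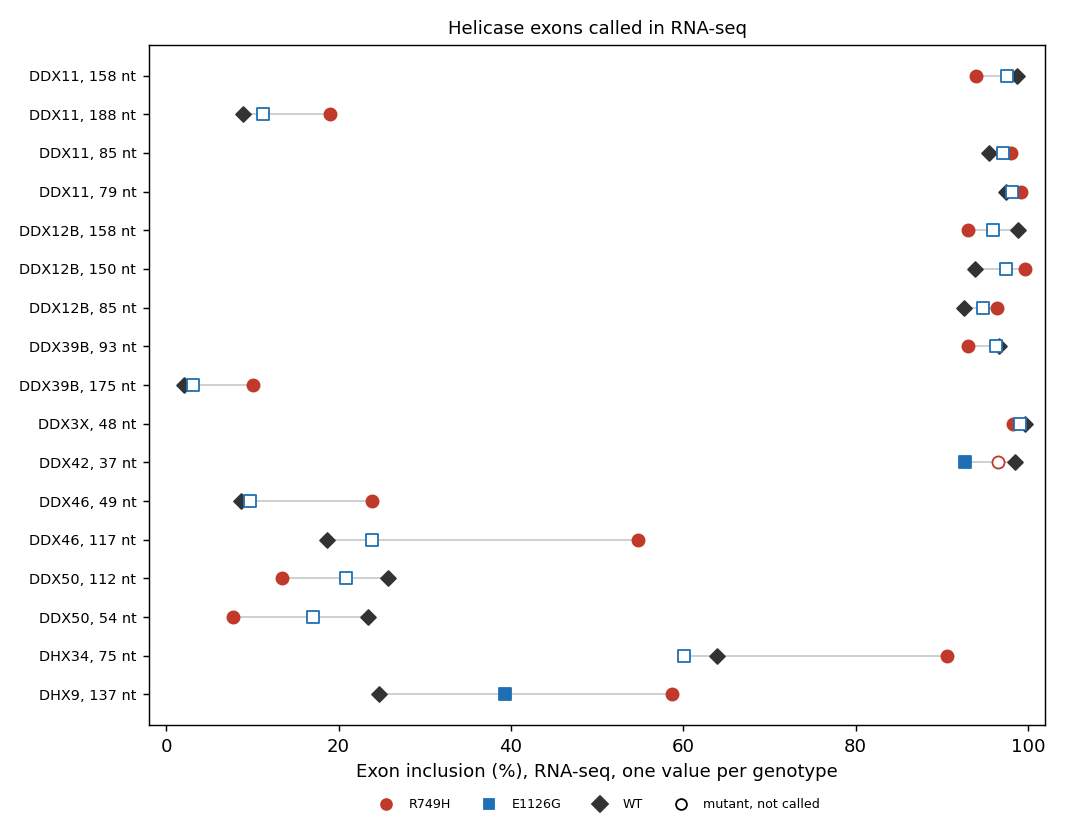
Inclusion level (%) of the 17 helicase exons called in RNA-seq, for R749H, E1126G and WT; filled mutant symbols are called and open ones are not, and each symbol is the 1 value the authors gave per genotype. The R749H symbols of DDX46 (54.7%), DHX9 (58.7%) and DHX34 (90.6%) lie far above WT, while most DDX11 and DDX12B symbols lie close to 100%.

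Of the helicases of translation, decay and RNA granules, 9 exons in 7 genes were tested and R749H raised 1 and lowered 1, against 15.1% of all exons called, with a median log2 change of -0.15 against -0.005. DHX34, which acts in nonsense-mediated decay of mRNA, had a 75-nt exon on chromosome 19 (47880172 to 47880246, plus strand) included at 90.6% in R749H and 60.1% in E1126G, against 63.9% in WT, in the authors' deposited tables. It rose in R749H (log2 change 2.45, adjusted p = 0.0091), and the E1126G level lay on the other side of WT without being called (adjusted p = 0.89). The difference between the mutants, 2.68 on the log2 scale, had an adjusted p of 0.10.

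DDX3X, which helps ribosomes onto mRNAs with structured leaders, carries a 48-nt exon on chromosome X (41198289 to 41198336, plus strand), a length that keeps the frame. In the authors' deposited RASL-seq tables it was included at 81.9% in R749H, 42.4% in H1106Y and 69.0% in E1126G, against 81.1% in WT. H1106Y fell by 2.55 on the log2 scale (adjusted p = 2.6e-25) and E1126G by 0.95 (adjusted p = 9.9e-12), while R749H had an adjusted p of 0.79. All 3 pairs of mutants differed: R749H exceeded H1106Y by 2.62 (95% interval 2.02 to 3.23, adjusted p = 6.1e-16) and E1126G by 1.02 (0.57 to 1.48, adjusted p = 9.5e-05), and the H1106Y change minus that of E1126G was -1.60 (-2.14 to -1.06, adjusted p = 3.1e-08). The authors' deposited RNA-seq tables gave the same exon levels near the ceiling, 98.3% in R749H and 99.1% in E1126G, against 99.7% in WT. R749H was lower there (log2 change -2.59, adjusted p = 0.0072) by 1.43 points, so the assays did not give R749H the same call, and their WT levels lay far apart.

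Ribosome biogenesis helicases had 15 RNA-seq exons in 8 genes for R749H, of which 2 fell and none rose. That is 13.3%, near the 15.1% of all exons, and the median log2 change was -0.09 against -0.005. Both calls were in DDX50, a nucleolar relative of DDX21. Its 112-nt exon on chromosome 10 (70665982 to 70666093, plus strand) was included at 13.4% in R749H and 20.8% in E1126G, against 25.8% in WT, in the authors' deposited tables (log2 change -1.16 in R749H, adjusted p = 0.022). A shorter form of the exon with the same end, 54 nt long (70666040 to 70666093), was included at 7.76% in R749H and 17.1% in E1126G, against 23.4% in WT, in the authors' deposited tables (log2 change -1.86 in R749H, adjusted p = 3.5e-04). E1126G lay between R749H and WT for both forms, uncalled. The 2 forms share a span and so are not independent.

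RASL-seq probed the 112-nt form of DDX50. It was included at 14.1% in R749H, 7.13% in H1106Y and 11.3% in E1126G, against 18.9% in WT, in the authors' deposited tables. All 3 mutants fell (adjusted p = 6.0e-04, 1.3e-41 and 2.9e-26). The fall in H1106Y was the deepest: R749H exceeded it by 1.09 on the log2 scale (95% interval 0.75 to 1.44, adjusted p = 7.5e-09), and the H1106Y change minus that of E1126G was -0.73 (-1.01 to -0.46, adjusted p = 1.0e-06). DHX33, which acts in ribosomal RNA synthesis, was included at 99.7% to 99.9% in the 4 genotypes of the RASL-seq tables and was not called.

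DHX30 binds RNA in mitochondria, where it helps mitochondrial ribosomes to assemble. Its 29-nt exon on chromosome 3 (47860726 to 47860754, plus strand) was included at 46.0% in R749H, 23.3% in H1106Y and 42.4% in E1126G, against 70.3% in WT, in the authors' deposited RASL-seq tables. It fell in all 3 mutants (adjusted p = 0.0051, 3.5e-05 and 0.0025). The authors' deposited RNA-seq tables gave 32.4% in R749H and 34.6% in E1126G, against 47.4% in WT, again lower but with adjusted p of 0.47 and 0.62. No pair of mutants was called different for this exon.

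DDX19B is a helicase of the nuclear pore that releases export factors from mRNA. Its 49-nt exon on chromosome 16 (70346512 to 70346560, plus strand) was included at 88.1% in R749H, 88.2% in H1106Y and 80.6% in E1126G, against 68.1% in WT, in the authors' deposited RASL-seq tables. H1106Y was called higher close to the threshold (adjusted p = 0.0497), and R749H missed it closely (adjusted p = 0.051). In the authors' deposited RNA-seq tables the exon had 84.7% in R749H and 71.1% in E1126G, against 86.8% in WT, and was not called. The levels of R749H and E1126G thus lay above WT in RASL-seq and below WT in RNA-seq.

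**Figure D3:**
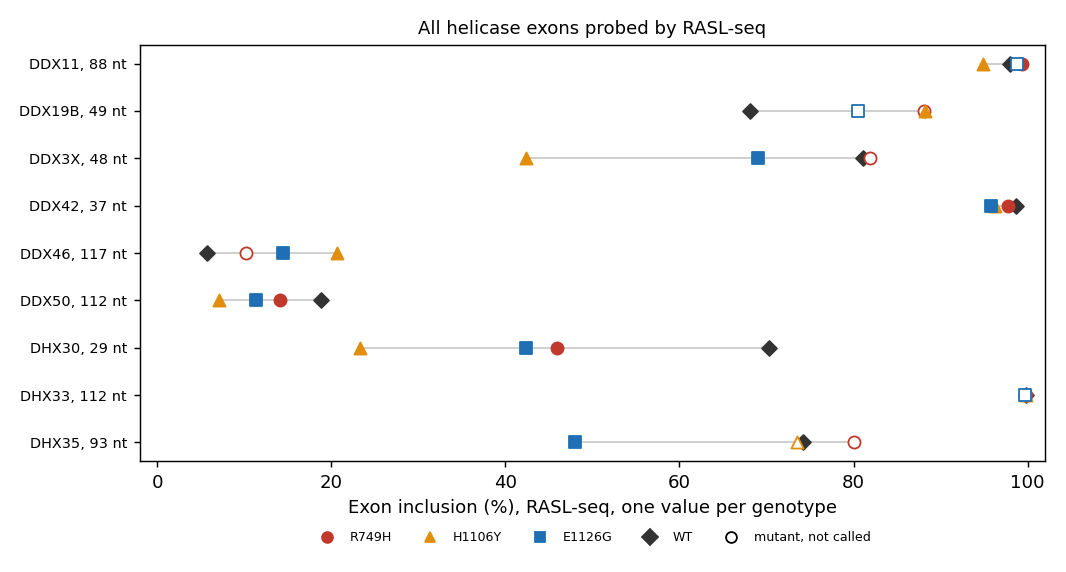
Inclusion level (%) of all 9 helicase exons probed by RASL-seq, for R749H, H1106Y, E1126G and WT, with filled mutant symbols where called; each symbol is the 1 value the authors gave per genotype. H1106Y lies farthest below WT for DDX3X (42.4%) and DHX30 (23.3%), and E1126G is farthest below WT for DHX35 (48.0%).

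Over the 9 RASL-seq exons, R749H changed 4 (1 higher, 3 lower), H1106Y 7 (2 higher, 5 lower) and E1126G 6 (1 higher, 5 lower). The background is high in these tables: 44.1% of 2248 exons were called for R749H (24% higher, 20.1% lower), 61.9% of 2070 for H1106Y (23.7% higher, 38.2% lower) and 47.5% of 2312 for E1126G (13.9% higher, 33.6% lower). With 9 exons the shares of 44.4%, 77.8% and 66.7% say little about the family. The median log2 change of the 9 was 0.08 for R749H, -1.42 for H1106Y and -0.91 for E1126G, beside 0.05, -0.33 and -0.37 over all exons. Changes differed between R749H and E1126G for 3 of the 9 (33.8% of 2128 exons), between R749H and H1106Y for 4 (41.5% of 1987) and between H1106Y and E1126G for 4 (49.2% of 1984).

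DDX11, a DNA helicase of the cohesion and replication machinery, had the most rows of any member. Its pseudogene DDX12P and the copy DDX12B on the same chromosome carry exons of the same lengths, and DDX12B, which stood on no role list, was placed beside DDX11 after the values were seen. R749H lowered the 158-nt exon in DDX11 (chromosome 12, 31237903 to 31238060, plus strand), for the shorter of its spans, and in DDX12B (9447413 to 9447570). There it had 93.9% and 93.0%, against 98.7% and 98.9% in WT, in the authors' deposited table (adjusted p = 0.0032 and 0.011). For the longer span in DDX11 the exon had 97.8% in R749H, against 98.8% in WT, and was not called (adjusted p = 0.71). DDX12P had 94.2% in R749H against 98.3% in WT without a call (adjusted p = 0.094). R749H raised the 188-nt exon of DDX11 (31238959 to 31239146) to 19.0%, against 8.89% in WT (adjusted p = 0.049), in the authors' deposited table. Its 85-nt (31255870 to 31255954) and 79-nt (31256251 to 31256329) exons were higher by 2.63 and 1.78 points (adjusted p = 0.043 and 0.036), and the 150-nt (9463737 to 9463886) and 85-nt (9464835 to 9464919) exons of DDX12B by 5.74 and 3.94 points (adjusted p = 4.9e-04 and 0.036). The 150-nt exon of DDX11 itself had 99.5% in R749H, against 98.7% in WT, and was not called. None of these exons was called in E1126G.

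An 88-nt exon of DDX11 on chromosome 12 (31242337 to 31242424, plus strand) was probed by RASL-seq and had levels above 94% in every genotype. It was 99.4% in R749H, 94.9% in H1106Y and 98.8% in E1126G, against 98.0% in WT, in the authors' deposited RASL-seq tables. R749H was higher (log2 change 1.63, adjusted p = 0.032) and H1106Y lower (-1.42, adjusted p = 0.014), and R749H exceeded H1106Y by 3.05 (95% interval 1.40 to 4.71, adjusted p = 0.0012). The H1106Y change minus that of E1126G was -2.17 (-3.53 to -0.82, adjusted p = 0.0042). RNA-seq put R749H at 96.2% and E1126G at 96.1%, against 98.1% in WT, in the authors' deposited tables, neither of them called.

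The introns on both sides of that 88-nt exon gave the highest log2 changes of any helicase region but the 150-nt exon of DDX12B. The authors' deposited intron tables gave the 251-nt intron before the exon (31242086 to 31242336) 68.6% retention in R749H and 24.3% in E1126G, against 16.1% in WT. Its log2 change was 3.51 in R749H (adjusted p = 5.4e-16). The 395-nt intron after the exon (31242425 to 31242819) had 88.5% in R749H and 58.1% in E1126G, against 47.6% in WT, in the authors' deposited tables. Its log2 change was 3.08 in R749H (adjusted p = 9.3e-11). By the size of the change in points both introns ranked high, at 15 and 45 of 2605 introns. R749H exceeded E1126G by 2.77 (95% interval 1.67 to 3.88, adjusted p = 2.3e-04) and by 2.47 (1.32 to 3.61, adjusted p = 0.0022). A 734-nt intron row that runs across the exon and both introns had 98.2% in R749H, against 93.8% in WT, and was not called. The 349-nt and 400-nt rows, which share their start with the 395-nt intron, stood above 95% in each genotype measured and were not called. Reads of the near-identical copies could also have been placed here, and their part in the result was not tested.

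**Figure D4:**
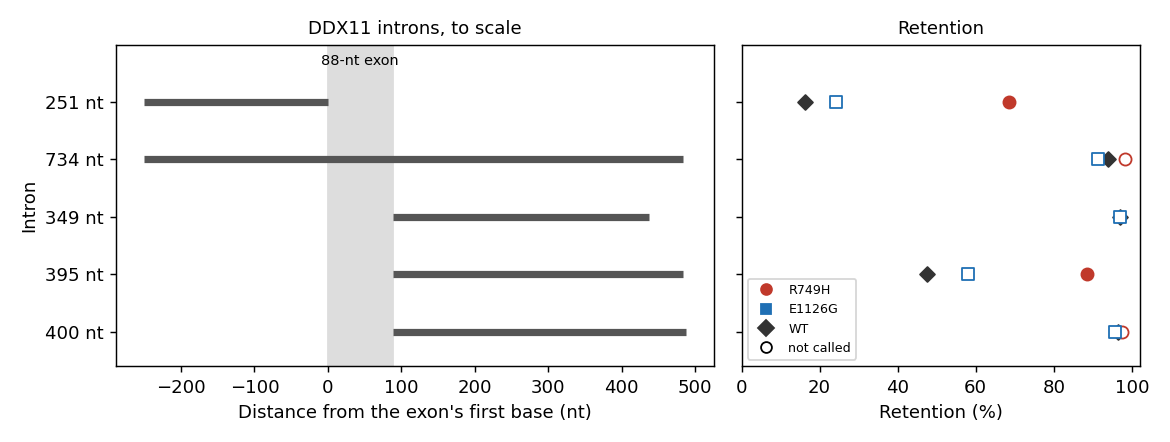
Left, the 5 intron rows of DDX11 drawn to scale in nt from the first base of the 88-nt exon (grey band); right, the retention level (%) of each for R749H, E1126G and WT, filled where called. The 251-nt and 395-nt introns that flank the exon have 68.6% and 88.5% in R749H, against 16.1% and 47.6% in WT.

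R749H raised retention of 3 of the 14 helicase introns tested and lowered none, which is 21.4% against 18.9% of all 2605 introns (11.9% higher and 6.99% lower). The third was an 892-nt intron of DDX46 (chromosome 5, 134152294 to 134153185, plus strand), retained at 89.2% in R749H and 81.0% in E1126G, against 76.0% in WT, in the authors' deposited tables (log2 change 1.38 in R749H, adjusted p = 0.0092). E1126G changed none of 15, against 9.18% of 2615 introns (4.51% higher and 4.67% lower), and 1 of the 15 had an unadjusted deposited p-value under 0.05. Changes differed between R749H and E1126G for 2 of 14 introns, the DDX11 pair, against 3.06% of 2518. The median log2 change of the helicase introns was 0.60 for R749H and -0.08 for E1126G, beside 0.04 and -0.02 over all introns. Of the 14 R749H introns 4 were overlapping DDX11 rows, with log2 changes from 0.52 to 3.51. The median without them was not computed. Without DDX11 1 of 10 introns was called in R749H.

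**Figure D5:**
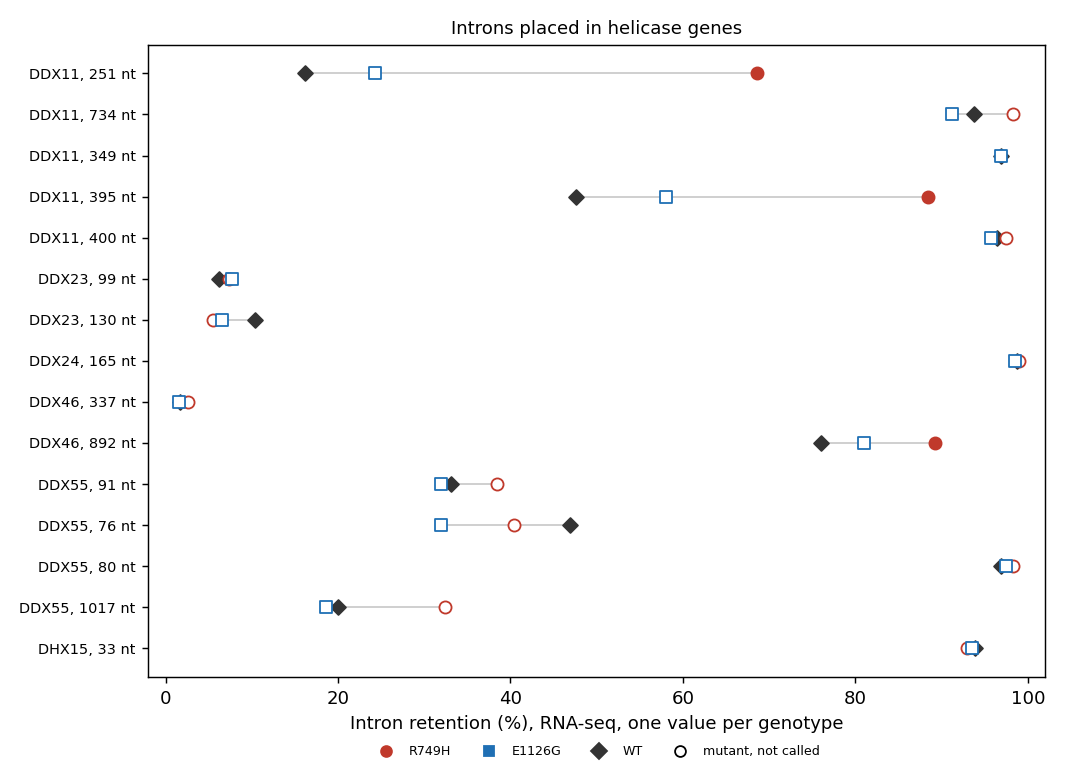
Retention level (%) of the 15 introns placed in helicase genes, for R749H, E1126G and WT, with filled mutant symbols where called. The 3 filled symbols are the DDX11 introns of 251 nt and 395 nt and the DDX46 intron of 892 nt, all to the right of WT, and no E1126G symbol is filled.

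DDX55, a ribosome biogenesis helicase, had 4 introns, none of them called. Its 1017-nt intron was retained at 32.4% in R749H and 18.7% in E1126G, against 20.0% in WT, in the authors' deposited tables (adjusted p = 0.079 in R749H). Its 76-nt intron had 40.5% in R749H and 32.0% in E1126G, against 46.9% in WT, in the authors' deposited tables (adjusted p = 0.59 and 0.12). A 33-nt gap in DHX15, the helicase that takes the spliceosome apart, had 92.9% in R749H and 93.5% in E1126G, against 93.9% in WT. Of the 45 gaps under 40 nt in the intron tables, 40 stood above 50%; their median level was 96.6%, while that of the remaining 2654 introns was 35.1%.

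Of the 33 genes, 21 had no called exon event in any of the 5 exon tables. The share of all 6976 gene identifiers without a call was not counted, so the 21 give no result about the family. They were DDX1, DDX5, DDX12P, DDX20, DDX23, DDX24, DDX27, DDX31, DDX39A, DDX41, DDX49, DDX54, DDX55, DDX56, DDX59, DHX15, DHX29, DHX33, DHX36, DHX40 and DHX57. The exon furthest from WT in points without a call was a 43-nt exon of DDX46 (chromosome 5, 134169271 to 134169313), at 52.1% in R749H against 77.8% in WT in the authors' deposited RNA-seq table (log2 change -1.69, adjusted p = 0.20). The uncalled exons of the RNA-seq tables ranged from -1.80 to 2.22 on the log2 scale in R749H and from -2.19 to 1.59 in E1126G. Depth is unknown, so an uncalled change of this size is not shown to be absent.

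Introns lying beside the measured interval of a helicase gene cannot be placed in it with certainty without gene limits of the same build, and they were left out of the counts above. The clearest was a 2455-nt intron next to DDX39B (chromosome 6, 31500689 to 31503143, minus strand), retained at 71.1% in R749H and 44.2% in E1126G, against 30.2% in WT, in the authors' deposited tables (adjusted p = 5.0e-22 and 0.0064). A 134-nt intron next to DDX41, a helicase of the late spliceosome (chromosome 5, 176939647 to 176939780, minus strand), went the other way, with 7.53% in R749H and 7.91% in E1126G, against 18.2% in WT, in the authors' deposited tables (adjusted p = 0.0042 and 0.0069). A 2637-nt intron next to DDX24 was retained at 9.87% in R749H, against 17.3% in WT (adjusted p = 0.022), in the authors' deposited table.

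Some RNA helicases lay outside the symbol rule, such as the eIF4A proteins, and these can still be DEAD or DEAH box proteins. These other helicases had 5 of 16 RNA-seq exons called in R749H (2 higher, 3 lower), against 15.1% of all exons. In E1126G they had 2 of 17 called (both lower), against 6.48% of all exons. In RASL-seq they had 5 of 5 called in R749H (1 higher, 4 lower), 4 of 5 in H1106Y (2 higher, 2 lower) and 5 of 5 in E1126G (all lower), in 2 genes, where 44.1%, 61.9% and 47.5% of all exons were called. The median log2 change of this list was 0.43 and -0.13 in RNA-seq and -0.71, -0.45 and -1.11 in RASL-seq, in the same order, beside -0.005 and -0.08, and 0.05, -0.33 and -0.37, over all exons. SUPV3L1, a mitochondrial RNA helicase, had a 135-nt exon at 4.48% in R749H against 24.8% in WT, in the authors' deposited RNA-seq table (adjusted p = 0.0069). EIF4A2, a translation initiation helicase, had an 111-nt exon at 14.6% in R749H against 33.2% in WT, in the authors' deposited table (adjusted p = 8.2e-05). Its 107-nt form was at 10.2% in R749H against 27.7% in WT (adjusted p = 4.7e-06).

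G-patch proteins bind DEAH helicases, and some of them switch on the helicase's ATPase. The list of these partners also held PRPF8, which is not a G-patch protein. Of the list's RNA-seq exons, 3 of 23 were called in R749H (1 higher, 2 lower), against 15.1% of all exons. In E1126G 1 of 27 was called (lower), against 6.48% of all exons. In RASL-seq 7 of 8 were called in R749H (5 higher, 2 lower), 4 of 8 in H1106Y (2 higher, 2 lower) and 5 of 8 in E1126G (2 higher, 3 lower), against 44.1%, 61.9% and 47.5% of all exons. Their median log2 change was -0.45 in R749H and -0.77 in E1126G in RNA-seq, and 0.68 in R749H, -0.11 in H1106Y and -1.14 in E1126G in RASL-seq. RBM6, an RNA-binding splicing regulator, had a 74-nt exon at 21.5% in R749H against 61.5% in WT, in the authors' deposited RNA-seq table (adjusted p = 1.3e-08). GPATCH8 had an 18-nt exon at 3.45% in R749H against 31.0% in WT in the same table (adjusted p = 0.043). The authors' deposited RASL-seq table put a 1279-nt exon of RBM6 at 66.3% in R749H against 49.7% in WT (adjusted p = 0.021). RBM5, its relative, had a 61-nt exon at 42.3% in E1126G against 65.9% in WT, in the authors' deposited RASL-seq table (adjusted p = 1.4e-12).

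The last list held partners of the DEAD helicases in translation initiation, the exon junction complex, export and mRNA decay (such as CNOT1 and EDC3). Of its RNA-seq exons, 7 of 58 were called in R749H (2 higher, 5 lower) and 5 of 58 in E1126G (3 higher, 2 lower). Among all exons 15.1% and 6.48% were called. In RASL-seq 5 of 11 were called in R749H (1 higher, 4 lower), 10 of 11 in H1106Y (all lower) and 8 of 12 in E1126G (1 higher, 7 lower). The shares over all exons were 44.1%, 61.9% (38.2% lower) and 47.5%. The median log2 change of the partners' exons was -0.21 in R749H and 0.007 in E1126G in RNA-seq, and -0.52 in R749H, -1.26 in H1106Y and -0.69 in E1126G in RASL-seq. EIF4G2, a scaffold for translation initiation, had a 114-nt exon at 54.1% in H1106Y against 81.1% in WT, in the authors' deposited RASL-seq table (adjusted p = 4.8e-41). EIF4G3, another scaffold of this kind, had a 109-nt exon at 29.3% in H1106Y against 49.8% in WT in the same table (adjusted p = 0.0036), and an 111-nt exon at 20.3% in R749H against 37.8% in WT in the authors' deposited RNA-seq table (adjusted p = 0.014). THOC5, a subunit of the THO export complex, had an 86-nt exon at 22.2% in E1126G against 3.74% in WT, in the authors' deposited RNA-seq table (adjusted p = 8.3e-06).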

How the data were processed

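Per the labels' protocols, paired-end RNA-seq reads of biological replicate samples were mapped one by one with TopHat 1.4.1; the submitters' processing notes name Bowtie 0.12.7, edgeR 3.7.17 and the builds GRCh37 and hg19, without saying which table each step made. The sources used here do not give the test behind the p-values. The files are 5 exon tables and 2 intron tables. In the deposited tables the WT ratio is a natural log and the change a log2 ratio of mutant over WT; no header names these bases, and they were settled from the values, since between 62.9% and 94.4% of the ratios read as natural logs came out, within a relative error of 1e-09, as quotients of integers whose divisor did not exceed 300, while base 2 gave no more than 0.396%. The authors' p-value is unadjusted. The tables named C4 were taken as R749H because that genotype's labels list them. GRO-seq was not analysed here.

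Levels were computed as ratio/(1 + ratio), and p-values were adjusted by Benjamini-Hochberg over each whole table. Differences between mutants used a z from implied standard errors. Exon positions were given 1-based. Identifiers were named from a table that matched 6848 of 6976. Introns carry no gene and were placed by position and strand inside the interval that a helicase gene's exon rows span. Named events were all helicase events called in any table, and the uncalled and partner events with the largest change in points. An event that this rule names is not reported here. The members and lists were chosen with earlier results of these data known. Code was tested on simulated data. Python 3.11.15, pandas 2.3.3, numpy 2.4.6, scipy 1.17.1 and matplotlib 3.10.9 were used.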

Additional observations from a re-analysis of the deposited data

How the results depend on the processing

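No paired analysis was possible because the tables hold no value per library, and for the same reason no library could be left out. Direction judged against the median log2 change of each table, instead of against no change, reversed none of the 38 calls. The other alternatives keep each deposited log2 change, so they could not change a direction. For R749H RNA-seq exons the 16 calls became 9 at an adjusted p of 0.01, 3 with Bonferroni adjustment, 10 (80% higher, against 62.5%) among exons with a WT level of 5% to 95% when p-values were adjusted anew over those exons alone, 7 with a change of at least 10 points, and 9 without the DDX11 copies. For E1126G RNA-seq exons the 2 calls became 1 at 0.01, 4 at 0.1, 0 with Bonferroni, 1 at a WT level of 5% to 95% and 1 at 10 points. In RASL-seq, Bonferroni left 1 of 4 calls in R749H, 4 of 7 in H1106Y and 3 of 6 in E1126G, and the 10-point minimum left 1 in R749H and 3 in E1126G. For R749H introns the 3 calls became 5 at 0.1, 6 with the introns beside the interval and 1 without DDX11; for E1126G the 0 became 2 with those introns. The difference between R749H and E1126G in DDX46 was not called at 0.01, leaving 0. Of the 38 calls, which count an event once in each table that called it, 27 stayed at 0.01 and 13 with Bonferroni. The alternatives without DDX11, DDX12B and DDX12P and with introns beside the interval were chosen after seeing the data. Depth per event is unknown, so uncalled events may be too thinly read to show a change, which was not tested.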
